A study of Mus musculus with 37 samples.

Results

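The transcripts followed here are those of 10 transcription factors of the secretory lineage of the intestinal epithelium: Atoh1, Gfi1, Spdef, Creb3l1, Foxa3, Foxa2, Foxq1, Klf4, Hes6 and Sox4. They were chosen by gene symbol, with earlier results of these data known. All 10 were found in each of the 3 count tables, which together list 31533 genes. Whole jejunal organoids of C57Bl6/J mice were left untreated (3 cultures) or treated with 100 nM vasoactive intestinal peptide (VIP) for 72 h (4 cultures). Lgr5-EGFP+ cells, in which EGFP is expressed from the Lgr5 locus to mark stem and progenitor cells, were sorted from organoids of Lgr5-EGFP-IRES-CreERT2 mice after 72 h without or with VIP (4 cultures each). In a further experiment they were sorted from organoids of the same reporter line after 48 h without or with VIP, either not irradiated or irradiated with 6 Gy (4 cultures in each of the 4 groups). The mice were adults of 6 to 12 weeks, and the cultures contained epithelium without the nerves that release VIP in the gut. Libraries were 3′ libraries with unique molecular identifiers (UMIs), so that amplified copies of a captured molecule were counted once, and levels are given as UMI counts scaled to library size (CPM).

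In the intestinal crypt, a cell in which Notch signalling is off switches on Atoh1, a basic helix-loop-helix factor without which goblet, Paneth and enteroendocrine cells do not form. Gfi1 acts downstream of Atoh1 and separates goblet and Paneth from enteroendocrine fates, while Spdef, an ETS factor, drives goblet and Paneth cell maturation. Creb3l1 is a bZIP factor of the endoplasmic reticulum membrane with a role in terminal goblet cell differentiation. The forkhead factors Foxa2 and Foxa3 regulate mucin genes, Foxq1 is a forkhead factor of mucus-secreting cells, and Klf4 is a zinc finger factor required for colonic goblet cells and also induced rapidly by many stimuli. Hes6 is a helix-loop-helix protein that opposes the Notch target Hes1, and Sox4 is an HMG-box factor of secretory progenitors.

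The depth was 3722716 to 6330404 UMIs in whole organoids, 575242 to 1104126 in the sorted cells of the 72 h experiment and 1075715 to 1876729 in the irradiation experiment. The defining leukocyte and endothelial genes Ptprc and Pecam1 lay at no more than 2.99 CPM in any culture, Ptprc not being listed for the 72 h sort. Summed, the 12 genes chosen for non-epithelial cells reached 80.9 CPM, in irradiated cells without VIP. Lgr5 was detected in all groups (12.2 to 116.4 CPM). Sorted cells had no higher Lgr5 level than whole organoids, where it was 42.4 to 116.4 CPM, against 12.2 to 56.2 CPM in the sorted cells of both experiments. Summed, 10 stem cell genes were at 4324 to 7148 CPM in the 72 h sort and 2621 to 5885 CPM in the irradiation experiment, against 2151 to 4506 CPM in whole organoids. Summed enterocyte genes were at 731.5 to 2967 CPM in sorted cells and 10830 to 14680 CPM in whole organoids. The experiments were separate, so these levels cannot be compared as a test. Of the paired technical replicate libraries of whole organoids, those of VIP-treated mouse 3 stood apart, with a chi-square per degree of freedom over genes of 19.5, against 1.13 to 2.94 in the other 5 pairs. The second of them went against its label for the secreted goblet cell product Clca1, with 52.3 CPM, where the 5 untreated libraries had 40.2 to 60.9 CPM and the 7 other VIP-treated libraries 172.9 to 324.9 CPM. Atoh1 and Foxa3 in this library, at 25.8 and 75.2 CPM, were below untreated mouse 3 (39.2 and 168.7 CPM). Both lay within the range of the libraries of mice 1 and 2 (16.45 to 27.2 and 70.1 to 111.0 CPM), while Foxa2 and Gfi1 did not. Whether this library carries a wrong treatment or mouse label was not tested. The values of VIP-treated mouse 3 sum both libraries, so the results in whole organoids are also given without this mouse and without each library in turn.

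VIP treatment of whole organoids was associated with higher Creb3l1, Klf4, Foxq1 and Atoh1 transcript levels, by 1.41-fold to 1.86-fold, while the fitted levels of Foxa3 and Hes6 were close to those of untreated organoids. In bulk samples, more cells of a type and more RNA per cell cannot be told apart. With edgeR's quasi-likelihood test, the mouse as a block and Benjamini-Hochberg adjustment over all genes, 4 of the 10 factors had an adjusted p of 0.05 or less, all higher with VIP. Over all 12727 genes tested, 4.82% passed this threshold (474 higher, 140 lower). The median log2 fold change of the 10 factors was 0.26, compared with −0.0041 for all genes. This is a description, since the factors were chosen with earlier results of these data known. Without the mouse as a block, 0 of the 10 factors passed and 3 had an unadjusted p under 0.05 in edgeR, as did 1065 of the 12727 genes.

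**Figure D1:**
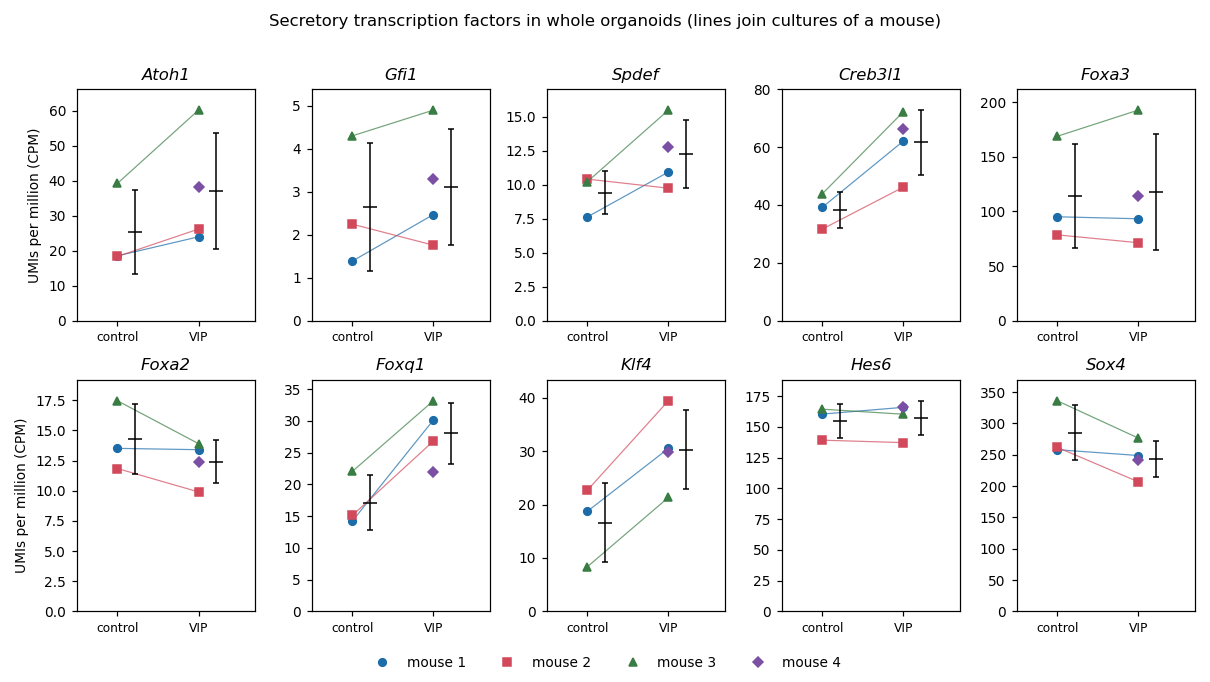
Levels of the 10 transcription factors in whole organoids, in CPM, for untreated and VIP-treated cultures. Symbols and lines mark the mouse, and black bars show the mean ± SD of 3 untreated and 4 VIP-treated cultures. Creb3l1, Foxq1, Klf4 and Atoh1 rise along each of the 3 lines.

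The goblet cell factor Creb3l1 had 39.2, 31.6 and 43.8 CPM in the untreated cultures of mice 1, 2 and 3. With VIP it had 62.1, 46.1 and 72.2 CPM in the same mice and 66.1 CPM in mouse 4, which has no untreated culture. The treated and untreated cultures did not overlap, and the rise was 1.46-fold to 1.65-fold in the 3 mice. The log2 fold change was 0.64 (SE 0.10, 95% confidence interval 0.41 to 0.86, edgeR adjusted p = 0.00249). Of the 4 factors that passed, Creb3l1 had the narrowest range of responses between mice when both libraries of VIP-treated mouse 3 were summed. Taken singly, these had 90.1 and 43.7 CPM, against 43.8 CPM in the untreated culture of mouse 3, so the narrow range depends on the sum. The second library alone showed no rise in mouse 3 and overlapped with the untreated cultures.

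Klf4 had 18.7, 22.7 and 8.33 CPM without treatment and 30.5, 39.4 and 21.3 CPM with VIP in mice 1, 2 and 3, and 29.8 CPM in VIP-treated mouse 4. The groups overlapped, since mouse 3 was low in both, but the VIP-treated culture was higher in 3 of 3 mice. Its log2 fold change was 0.89 (SE 0.15, edgeR adjusted p = 0.00283), and the adjusted p was 0.00159 without the second library of VIP-treated mouse 3 and 4.71e-06 without mouse 3. The call was lost without the first library of that culture (0.92, edgeR adjusted p = 0.336) and without the mouse as a block (0.86, edgeR adjusted p = 0.359).

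The forkhead gene Foxq1 was at 14.2, 15.1 and 22.03 CPM in untreated cultures and at 30.2, 26.8 and 33.2 CPM with VIP in mice 1 to 3, with 21.9 CPM in VIP-treated mouse 4. Untreated mouse 3 was thus level with VIP-treated mouse 4, and within the 3 mice the level was 1.51-fold to 2.12-fold higher with VIP. Its log2 fold change was 0.83 (SE 0.15, edgeR adjusted p = 0.00521). Without mouse 1 the call was lost, with a log2 fold change of 0.68 and an adjusted edgeR p of 0.0818.

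Atoh1 had 18.5, 18.4 and 39.2 CPM in untreated mice 1, 2 and 3, and 23.98, 26.2 and 60.2 CPM in the same mice with VIP, with 38.2 CPM in mouse 4. The spread between mice was larger than the response, mouse 3 being high in both states, and the groups overlapped. Within mice the level was 1.29-fold to 1.54-fold higher with VIP, with a log2 fold change of 0.50 (SE 0.12, edgeR adjusted p = 0.0324). This was the weakest of the 4 calls: the adjusted p was 0.130 without mouse 1, 0.174 without mouse 2 and 0.453 with DESeq2's Wald test.

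**Figure D2:**
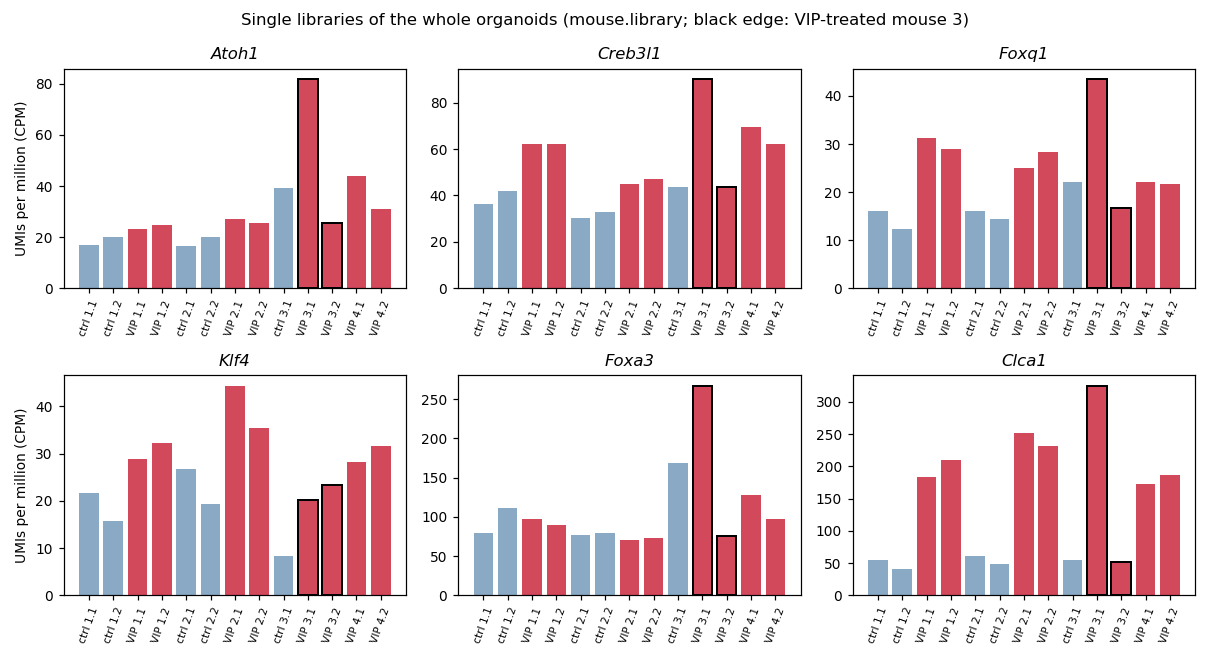
Levels of 5 of the factors and of the goblet cell gene Clca1 in each of the 13 libraries of whole organoids, in CPM. Blue bars are untreated and red bars VIP-treated libraries, labelled by mouse and library, and the black edges mark VIP-treated mouse 3, whose second library is lower than its first for Atoh1, Creb3l1, Foxq1, Foxa3 and Clca1 and not for Klf4.

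The pair of libraries of VIP-treated mouse 3 differed for several of these factors. Atoh1 had 81.9 CPM in the first and 25.8 CPM in the second, Foxa3 266.7 and 75.2 CPM, Creb3l1 90.1 and 43.7 CPM, Foxq1 43.5 and 16.8 CPM, and Spdef 19.8 and 8.58 CPM. Klf4 had similar values, 20.1 and 23.3 CPM, as did Hes6 (165.0 and 152.9 CPM) and Sox4 (280.6 and 270.2 CPM). The summed goblet cell products were at 12020 CPM in the first library and at 7648 CPM in the second, within the 5936 to 7792 CPM of the untreated libraries. When the second library was left out, all 4 factors kept an adjusted p of 0.05 or less, with a log2 fold change of 0.69 for Atoh1 and 0.75 for Creb3l1. When the first library was left out, 0 of the 10 factors and 0 of all genes passed in edgeR, with 1 factor and 720 genes at an unadjusted p under 0.05. The fitted values were then a log2 fold change of 0.089 for Atoh1, 0.40 for Creb3l1, 0.55 for Foxq1 and 0.92 for Klf4. Without mouse 3 as a whole, the 4 factors passed, with 0.46 for Atoh1 (edgeR adjusted p = 0.0350), 0.63 for Creb3l1, 0.98 for Foxq1 and 0.78 for Klf4, as did 1668 of all genes.

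The other 6 factors did not pass the test in whole organoids. Spdef had 7.62, 10.4 and 10.2 CPM without treatment and 10.9, 9.74 and 15.5 CPM with VIP in mice 1 to 3 (log2 fold change 0.33, 95% confidence interval −0.10 to 0.76, edgeR adjusted p = 0.463), so the direction differed between mice. Foxa3 was close to 0 on the log2 scale (0.0062, 95% confidence interval −0.20 to 0.21), with 95.1, 78.6 and 168.7 CPM in untreated and 93.3, 71.4 and 192.7 CPM in VIP-treated mice 1 to 3. Hes6 was as close, with a log2 fold change of −0.0092 and a confidence interval of −0.20 to 0.19. Gfi1 was at 1.39 to 4.90 CPM in all cultures, 8 to 31 UMIs, and its interval of −0.56 to 0.94 leaves changes of that size undetectable at this depth. Without mouse 3, and without the second or the first library of its VIP-treated culture, the log2 fold changes were 0.23, 0.46 and 0.067 for Spdef, −0.059, 0.19 and −0.45 for Foxa3, 0.036, 0.015 and −0.046 for Hes6, and 0.25, 0.33 and −0.0008 for Gfi1.

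Sox4 and Foxa2 had lower values with VIP, without passing the test. Sox4 had 258.1, 262.0 and 336.3 CPM without treatment and 248.8, 206.8 and 276.6 CPM with VIP in mice 1 to 3, lower in 3 of 3 mice, with a log2 fold change of −0.23 (SE 0.09, edgeR adjusted p = 0.224). Foxa2 had 11.8 to 17.5 CPM without treatment and 9.90 to 13.9 CPM with VIP, with a log2 fold change of −0.20 (SE 0.17, edgeR adjusted p = 0.637). Without mouse 3, its second or its first VIP-treated library, Sox4 was at −0.17, −0.22 and −0.26 and Foxa2 at −0.10, −0.21 and −0.17 on the log2 scale, and neither passed.

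Upstream sequences are shown for Atoh1 and Klf4, which rose together in whole organoids, and for Foxa3, which passed in sorted cells and not there. They are the 250 bases before the start site in RefSeq (GRCm38.p6), 5′ to 3′ on the gene's strand. Of the 10 factors, 8 had an entry, with 12 start sites in all, and Creb3l1 and Foxq1 had none. The motifs searched on both strands were the E-boxes CAGCTG and CAGATG, bound by helix-loop-helix factors, the forkhead motif TGTTTAC, the cAMP response element TGACGTCA and its first 5 bases TGACG, which lie within it. Capitals mark the matches, which are found in Klf4 only of these 3. They are the letters CAGCTG, beginning 247 bases before the start site, and TGACG on the opposite strand, beginning 232 bases before it.
Atoh1 (chr6:64728875-64729124, + strand): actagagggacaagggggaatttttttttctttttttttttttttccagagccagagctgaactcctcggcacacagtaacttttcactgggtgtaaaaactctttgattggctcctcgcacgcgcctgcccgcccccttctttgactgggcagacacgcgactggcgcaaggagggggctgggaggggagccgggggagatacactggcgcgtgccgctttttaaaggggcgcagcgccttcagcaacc
Klf4 (chr4:55532476-55532725, − strand): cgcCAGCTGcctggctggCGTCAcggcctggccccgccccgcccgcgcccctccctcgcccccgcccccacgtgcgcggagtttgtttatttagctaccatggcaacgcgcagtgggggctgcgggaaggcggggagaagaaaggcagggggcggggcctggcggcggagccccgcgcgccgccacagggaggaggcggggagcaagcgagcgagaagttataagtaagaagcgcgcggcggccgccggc
Foxa3 (chr7:19023540-19023789, − strand): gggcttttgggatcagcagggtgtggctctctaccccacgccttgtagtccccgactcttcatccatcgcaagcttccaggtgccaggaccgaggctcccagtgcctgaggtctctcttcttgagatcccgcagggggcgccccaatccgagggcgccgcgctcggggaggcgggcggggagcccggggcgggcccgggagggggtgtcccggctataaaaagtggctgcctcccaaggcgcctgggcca

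Of all 32851 promoters in the RefSeq table, 13% held CAGCTG in this window, 14.4% CAGATG, 3.17% TGTTTAC, 1.55% TGACGTCA and 17.8% TGACG. Among the 12 windows of these factors, CAGCTG was found in 4 (Klf4, Sox4 and both start sites of Hes6), TGACG in 2 (Klf4 and Spdef), and the other 3 motifs in 0. A match is a description of the letters and not a binding site. In GENCODE M21 on GRCm38, all 10 are protein-coding genes. Creb3l1 lies on chromosome 2 (91982328 to 92024502, − strand), Foxq1 on chromosome 13 (31556134 to 31560976, + strand), Atoh1 on chromosome 6 (64729125 to 64731245, + strand) and Klf4 on chromosome 4 (55527143 to 55532466, − strand).

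Products of secretory cells and the other regulators of the lineage were read in the same test, in lists also chosen with earlier results known. Of 16 listed goblet cell products, 15 were tested in whole organoids and 9 rose with VIP, 0 fell, with a median log2 fold change of 0.66. Their summed level was 6121 to 7792 CPM without and 8897 to 10640 CPM with VIP, and its part in the rise of the 4 factors was not tested. Clca1 (log2 fold change 2.08), the lectin Zg16 (1.67), the disulphide isomerase Agr2 (0.73), Guca2a (0.69) and the trefoil factor Tff3 (0.52) had the smallest p, all with an adjusted edgeR p of 0.0025 or less. Of 14 tested Paneth cell products 0 passed, with a median of 0.14, and of 12 enteroendocrine genes 2 rose, Reg4 (0.54) and the hormone gene Cck (0.53). The 7 tested tuft cell genes had a median of −0.60, with 0 of 7 positive, 0 past the threshold and 3 at an unadjusted p under 0.05 in edgeR. Their summed level was 24.6 to 28.8 CPM without and 15.3 to 17.7 CPM with VIP, without overlap. Of 12 enterocyte genes, the phosphatase gene Alpi rose (1.35) and Fabp1 fell (−0.49), and of 20 p53 targets Cdkn1a rose (0.58).

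Among the 16 tested of 20 other secretory regulators, such as Neurog3, Pax4, Xbp1 and Sox9, 0 passed (2 at an unadjusted p under 0.05 in edgeR), with a median log2 fold change of −0.13. Of the 13 tested of 17 Notch pathway genes, 0 passed (1 at an unadjusted p under 0.05), with a median of −0.10. Over all genes tested in whole organoids, 16.4% had an unadjusted p under 0.05. Of 18 transcription factors of the absorptive lineage, Maf rose (0.94) and the liver X receptor gene Nr1h3 fell (−0.80). The summed level of the 10 secretory factors was 592.1 to 814.7 CPM without and 575.3 to 850.8 CPM with VIP, so the sums overlapped. Immediate early genes, which like Klf4 respond rapidly to stimuli, moved as well: 5 of 18 tested genes rose, 0 fell, among them Fos (0.98), Junb (0.63), Dusp1 (1.04), Ier3 (0.90) and Egr1 (0.59), and their part in the Klf4 result was not tested. These calls in lists share the dependence on VIP-treated mouse 3. Without its first library 0 genes of any list passed, with a median of 0.43 for goblet cell products and 0.30 for immediate early genes. Without mouse 3, 12 goblet cell products, 4 enteroendocrine and 7 immediate early genes rose (1 immediate early gene fell), as did 8 Paneth cell products (1 fell). Without its second library, 12, 3 and 8 genes of the first 3 lists and 4 Paneth cell products rose, and 0 fell.

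**Figure D3:**
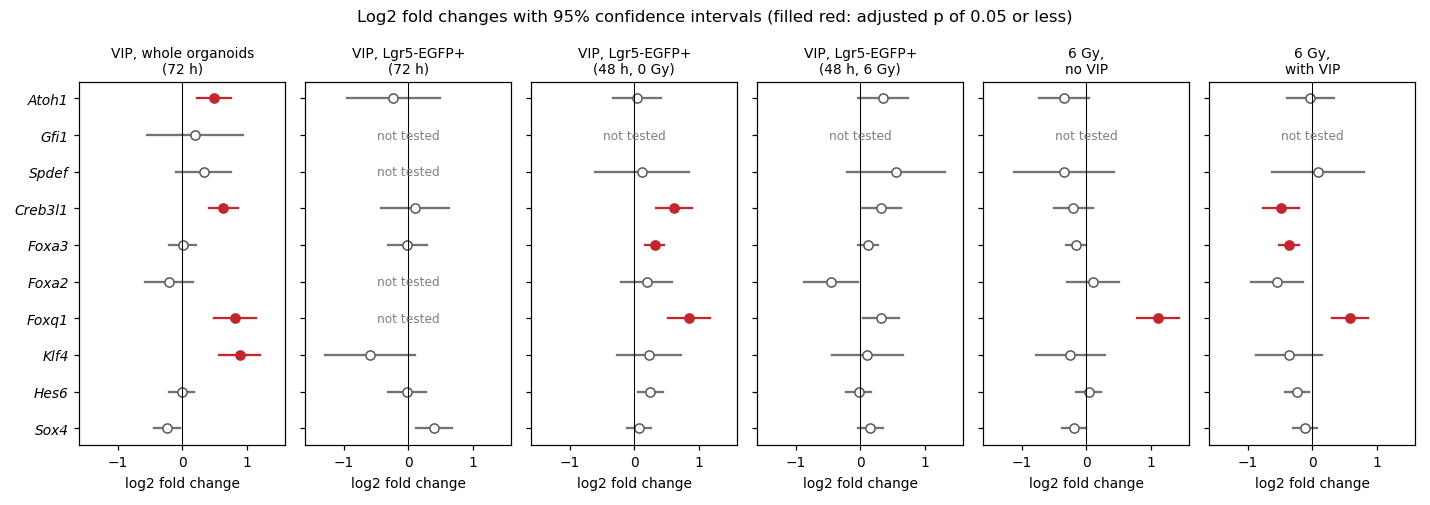
Log2 fold changes of the 10 factors in 6 comparisons, with 95% confidence intervals from edgeR. Filled red points have an adjusted p of 0.05 or less, open points do not, and genes under the count filter are marked as not tested. Foxq1 is red in 4 panels and Creb3l1 in 3.

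In Lgr5-EGFP+ cells sorted after 72 h, 0 of the 6 factors with enough counts to be tested passed the threshold for VIP. At an unadjusted p under 0.05 in edgeR there was 1 (Sox4), where 5.5% of all genes had such a p. Only 6 of all 6778 genes passed, or 0.0885%, so few changes of any kind were called at this depth. Spdef, Gfi1, Foxa2 and Foxq1 were under the count filter, with at most 16 UMIs in any culture. DESeq2 also called 0 of the 6 factors. Of the other lists, 1 gene passed, the goblet cell gene Fcgbp, which fell (−0.97).

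Sox4 had 275.0, 231.3, 195.6 and 279.8 CPM in the untreated cells of mice 1 to 4 and 314.3, 304.2, 343.8 and 354.8 CPM after VIP. The VIP-treated cultures were higher in 4 of 4 mice and did not overlap with the untreated ones. The log2 fold change was 0.39 (SE 0.14, unadjusted p = 0.00714, edgeR adjusted p = 0.826). In whole organoids the value of Sox4 was lower in 3 of 3 mice, and the difference between the compartments was 0.63 (SE 0.17, unadjusted p = 0.00114, edgeR adjusted p = 0.244). Whole organoids and sorted cells also differed in mouse line, experiment and depth, so a difference by compartment cannot be told apart from these.

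Klf4 showed the widest difference between the compartments. In the sorted cells of mice 1 to 4 it had 21.9, 40.5, 11.5 and 23.9 CPM without and 13.6, 12.2, 15.3 and 23.8 CPM with VIP, from 7 to 35 UMIs per culture. Mouse 2 was at 0.30 of its untreated level while mouse 3 was higher with VIP, and the log2 fold change of −0.60 did not pass (SE 0.34, edgeR adjusted p = 0.884). The interaction of VIP with the compartment was −1.51 (95% confidence interval −2.27 to −0.76, unadjusted p = 0.000421, edgeR adjusted p = 0.143). In that model 15 of 10194 genes passed, or 0.147%, and 0 of the 9 factors tested did. Klf4 passed when all genes with any count were tested (edgeR adjusted p = 0.0232) and when mouse 3 of both experiments was left out. In the other 10 of 12 alternatives Klf4 did not pass, with an interaction of −1.72 to −1.16 over all 12. The interaction was −0.71 for Spdef, −0.70 for Foxq1, 0.41 for Foxa2, −0.020 for Foxa3 and −0.017 for Hes6, and Gfi1 was not tested. Of 14 goblet cell products 4 passed, all with a smaller value in sorted cells, Fcgbp (−1.67), Zg16 (−2.22), Guca2a (−1.01) and Tff3 (−1.12).

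For the remaining factors of the 72 h experiment the intervals were wide. Atoh1 had 11.5 to 40.5 CPM without and 5.21 to 28.9 CPM with VIP, 3 to 25 UMIs per culture, and a log2 fold change of −0.23 (95% confidence interval −0.95 to 0.49). For Creb3l1, the value was 0.11 (−0.42 to 0.63) on the log2 scale, an interval whose upper end lies just below the 0.64 of whole organoids. Foxa3 had a log2 fold change of −0.014 (−0.32 to 0.29) and Hes6 of −0.028 (−0.32 to 0.27). The interaction with the compartment was −0.74 for Atoh1 (SE 0.36, edgeR adjusted p = 0.793) and −0.53 for Creb3l1 (SE 0.28, adjusted p = 0.8288), so a difference in their response was not shown.

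In non-irradiated Lgr5-EGFP+ cells sorted after 48 h, VIP was associated with higher Foxq1, Creb3l1 and Foxa3. These 3 of the 9 factors tested passed the threshold, all higher, where 0.742% of 9976 genes passed (48 higher, 26 lower). All 9 had a positive log2 fold change, with a median of 0.23 compared with −0.0033 for all genes. Gfi1, at 0.56 to 4.51 CPM, was not tested.

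**Figure D4:**
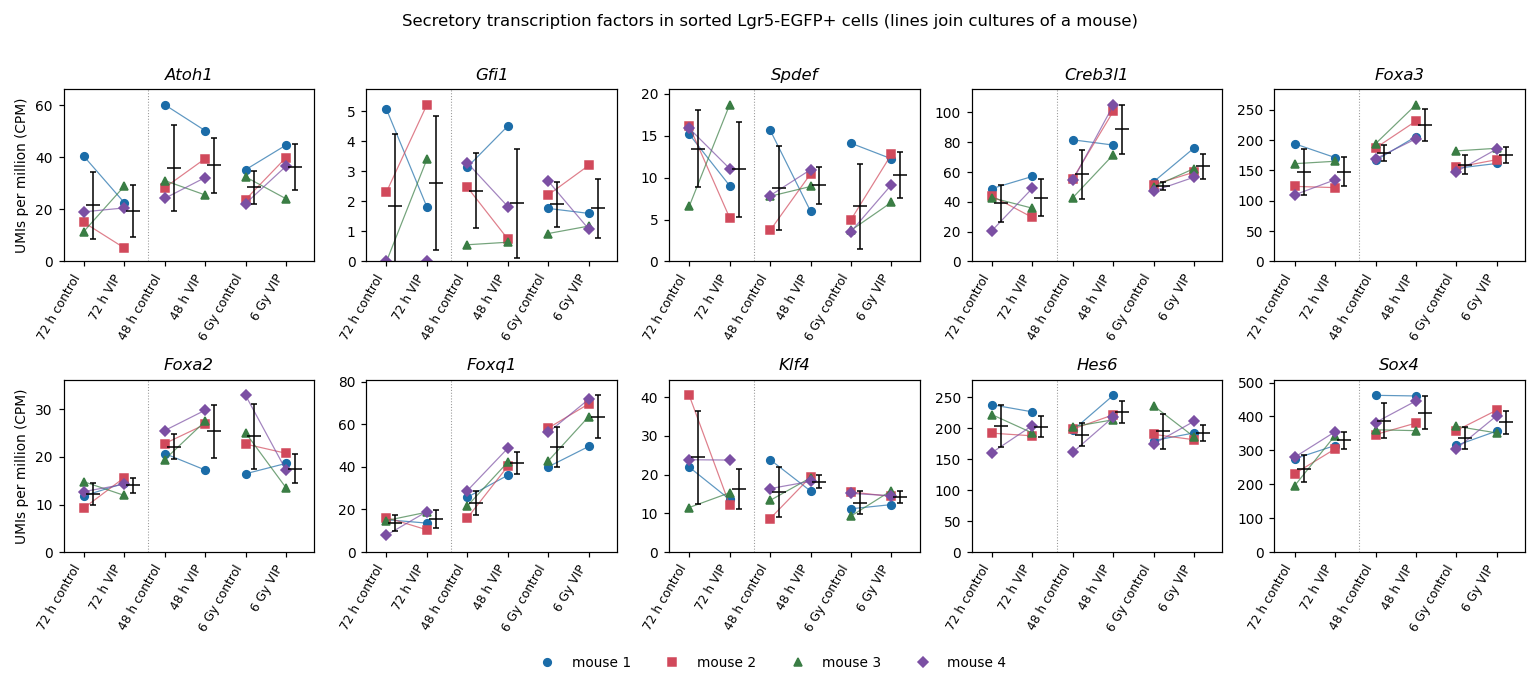
Levels of the 10 factors in sorted Lgr5-EGFP+ cells, in CPM. From left to right are the 72 h experiment (control and VIP) and, after the dotted line, the irradiation experiment (48 h, not irradiated and 6 Gy, control and VIP), with lines joining the cultures of a mouse and black bars showing mean ± SD (n = 4). Foxq1 is lowest in the non-irradiated control cells and highest in irradiated VIP-treated cells of the irradiation experiment.

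Foxq1 had 25.8, 16.04, 21.7 and 28.8 CPM in untreated, non-irradiated cells of mice 1 to 4 and 36.1, 40.3, 42.2 and 48.7 CPM after VIP. The groups did not overlap, and VIP-treated cells were higher in 4 of 4 mice, by 1.40-fold to 2.51-fold. Its log2 fold change was 0.85 (SE 0.16, edgeR adjusted p = 0.00746), close to the 0.83 of whole organoids. It was 0.82 without mouse 3 and 0.90 without mouse 4, with adjusted p-values of 0.0946 and 0.0609 in edgeR.

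Creb3l1 had 81.7, 55.5, 42.8 and 54.4 CPM without and 78.1, 100.7, 71.6 and 104.8 CPM with VIP in mice 1 to 4. Mouse 1 was at 0.96 of its untreated level, and the other 3 were 1.67-fold to 1.93-fold higher. The log2 fold change was 0.61 (SE 0.14, edgeR adjusted p = 0.0302), and the call was lost without mouse 2, mouse 3 or mouse 4 (adjusted p of 0.178, 0.141 and 0.238). Foxa3 rose less, from 166.4, 186.9, 194.0 and 169.1 CPM to 205.8, 231.3, 258.3 and 202.2 CPM, without overlap between the groups. Its log2 fold change was 0.32 (SE 0.07, edgeR adjusted p = 0.0406), with 0.29 to 0.34 and an adjusted p of at least 0.117 when any mouse was left out. The Foxa3 call was also lost with DESeq2 (adjusted p = 0.0657) and when all genes with any count were tested (edgeR adjusted p = 0.102).

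Of the others, Hes6 was higher in 4 of 4 mice without overlap, at 161.2 to 202.4 CPM untreated and 213.6 to 253.1 CPM with VIP (log2 fold change 0.25, SE 0.09, edgeR adjusted p = 0.242). Atoh1 was at 24.3 to 60.3 CPM and 25.6 to 50.3 CPM, with a log2 fold change of 0.041 (95% confidence interval −0.33 to 0.41, edgeR adjusted p = 0.962). Klf4, with 0.23, Foxa2, with 0.19, Spdef, with 0.12, and Sox4, with 0.078, did not pass either. Of 14 goblet cell products tested in the same cells, 0 passed, and their median log2 fold change was −0.19. Their summed level was 5826 to 9111 CPM in untreated and 5270 to 5860 CPM in VIP-treated cells. Of 12 tested Paneth cell products 0 passed and 0 were positive, with 7 at an unadjusted p under 0.05 in edgeR and a median of −0.41. Over all genes tested, 12.4% had an unadjusted p under 0.05. The Paneth cell products summed to 10540 to 15800 CPM in untreated and 9024 to 10300 CPM in VIP-treated cells, without overlap. Of 12 enteroendocrine genes 0 passed and 0 were positive (4 at an unadjusted p under 0.05, median −0.26), and of 8 tuft cell genes 0 passed and 1 was positive (3 at an unadjusted p under 0.05, median −0.48). The stem cell gene Olfm4 rose (0.57), and the summed stem cell genes were at 3581 to 4582 CPM without and 5453 to 5885 CPM with VIP. Of 9 tested stem cell genes only 1 passed and 8 were positive, with a median of 0.14, so the sum is not a measure of the typical gene. The lipid-binding genes Fabp1 (−0.95) and Fabp2 (−0.41) of enterocytes and the p53 targets Cdkn1a (−0.57) and Bbc3 (−0.61) fell with VIP. The part of these cells in the results for Foxq1, Creb3l1 and Foxa3 was not tested.

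In irradiated cells, 0 of the 9 factors passed the threshold for VIP, where 0.221% of 9976 genes did. At an unadjusted p under 0.05 in edgeR there were 3, Foxq1, Foxa2 and Creb3l1, where 5.75% of all genes had such a p. DESeq2 called 0 factors and had 0 at an unadjusted p under 0.05. Creb3l1 had 53.5, 51.5, 50.2 and 47.2 CPM after irradiation alone and 76.2, 59.9, 62.4 and 56.6 CPM after irradiation with VIP, higher in 4 of 4 mice without overlap. Its log2 fold change was 0.32 (SE 0.15, edgeR adjusted p = 0.810). Foxq1 had 40.0, 58.2, 42.8 and 56.1 CPM after irradiation alone and 49.6, 69.5, 63.6 and 71.7 CPM with VIP (0.33, SE 0.14, edgeR adjusted p = 0.726), higher in 4 of 4 mice.

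Foxa2 had the opposite sign, with 16.5 to 33.0 CPM after irradiation alone and 13.5 to 20.8 CPM with VIP (log2 fold change −0.46, SE 0.20, edgeR adjusted p = 0.771), lower in 3 of 4 mice. Spdef (0.55, 95% confidence interval −0.20 to 1.31) and Atoh1 (0.36, −0.03 to 0.74) were higher in 3 of 4 mice without passing. Foxa3 was at 147.9 to 182.2 CPM after irradiation alone and 161.5 to 186.5 CPM with VIP (0.12, 95% confidence interval −0.04 to 0.28), and Sox4 at 304.8 to 370.9 CPM and 351.3 to 418.7 CPM (0.16, −0.03 to 0.35). Hes6 (−0.026, −0.22 to 0.17) and Klf4 (0.11, −0.44 to 0.66) did not pass either, and Gfi1, at 0.93 to 3.20 CPM, was not tested. Of the other lists, Olfm4 rose (0.35) and Fabp1 (−1.37) and Fcgbp (−1.05) fell with VIP. Of 12 tested Paneth cell products 0 passed and 0 were positive, with a median of −0.51. At an unadjusted p under 0.05 in edgeR there were 8, where 5.75% of all genes had such a p.

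Whether the response to VIP differs with irradiation was tested as an interaction. In edgeR 0 of the 9 factors and 0% of all genes passed, with 634 genes at an unadjusted p under 0.05, among them Foxq1 (−0.52, SE 0.21), Foxa2 (−0.65, SE 0.28) and Hes6 (−0.27, SE 0.13). DESeq2 called 0 as well. A smaller response of Foxq1 and Creb3l1 in irradiated cells was therefore not shown, the interaction of Creb3l1 being −0.29 (95% confidence interval −0.70 to 0.13). It was −0.20 for Foxa3, −0.12 for Klf4, 0.078 for Sox4, 0.44 for Spdef and 0.31 for Atoh1, and Gfi1 was not tested. The comparisons of this experiment share their 16 cultures, so the results for VIP and those for irradiation are not independent.

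Irradiation of untreated cells raised Foxq1 alone among the 9 factors tested, in an experiment where 4.46% of 9976 genes passed (286 higher, 159 lower). From the 25.8, 16.04, 21.7 and 28.8 CPM of non-irradiated cells, it reached 40.0, 58.2, 42.8 and 56.1 CPM in irradiated cells of mice 1 to 4, without overlap. The rise was 1.55-fold to 3.63-fold, higher in 4 of 4 mice, with a log2 fold change of 1.11 (SE 0.16, edgeR adjusted p = 6.53e-05). Of the 11 effects called for these factors, this was the only one that passed under all of the alternatives tried for it, with a log2 fold change of 0.88 to 1.28.

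The median log2 fold change of the 9 factors was −0.19, against −0.0041 for all genes. Foxa3 was at 147.9 to 182.2 CPM after irradiation and lower in 4 of 4 mice (log2 fold change −0.16, SE 0.08, edgeR adjusted p = 0.294). Sox4 (−0.19, SE 0.09) and Atoh1 (−0.34, SE 0.19) did not pass, with adjusted p-values of 0.297 and 0.381. The same held for Creb3l1 (−0.20), Klf4 (−0.25), Foxa2 (0.10) and Hes6 (0.039), and Gfi1 was not tested. Spdef was at 3.56 to 14.1 CPM, 4 to 24 UMIs, and differences of its size could not be resolved (95% confidence interval −1.12 to 0.44).

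In VIP-treated cells, irradiation was associated with higher Foxq1 and with lower Creb3l1 and Foxa3, so 3 of the 9 factors passed, where 7.78% of 9976 genes did (431 higher, 345 lower). Foxq1 went from 36.1, 40.3, 42.2 and 48.7 CPM to 49.6, 69.5, 63.6 and 71.7 CPM in mice 1 to 4, without overlap, with a log2 fold change of 0.59 (SE 0.14, edgeR adjusted p = 0.00705). Without mouse 3 or mouse 4 its adjusted p was 0.0507 and 0.0540.

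Foxa3 went from 205.8, 231.3, 258.3 and 202.2 CPM to 161.5, 167.8, 186.5 and 185.4 CPM, lower in 4 of 4 mice and without overlap (log2 fold change −0.36, SE 0.07, edgeR adjusted p = 0.00284). Without mouse 3 it was −0.31, with an adjusted p of 0.0514. Creb3l1 went from 78.1, 100.7, 71.6 and 104.8 CPM to 76.2, 59.9, 62.4 and 56.6 CPM, with little change in mouse 1 and 0.54 of the non-irradiated level in mouse 4. Its log2 fold change was −0.49 (SE 0.13, edgeR adjusted p = 0.0238), and the call was lost without mouse 2 (−0.40, adjusted p = 0.175), without mouse 4 (−0.34, adjusted p = 0.264) and with DESeq2 (adjusted p = 0.0675). Foxa2 (−0.54, SE 0.20, edgeR adjusted p = 0.0933) was lower in 3 of 4 mice, and Hes6 (−0.24, adjusted p = 0.131) in 4 of 4. Klf4 (−0.36), Sox4 (−0.11), Spdef (0.095) and Atoh1 (−0.028) did not pass, and Gfi1 was not tested.

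Products of mature secretory cells rose with irradiation, and enterocyte genes passed the threshold in untreated cells only. In untreated cells 11 of 12 tested Paneth cell products rose, with the smallest p for Defa17 (log2 fold change 1.40), Ang4 (1.32), Itln1 (1.02), Mmp7 (0.88) and Pla2g2a (0.97). Of 14 goblet cell products 6 rose, led by the mucin gene Muc2 (1.27), Zg16 (1.71), Tff3 (0.53), Spink4 (0.57) and Fcgbp (1.08), and of 12 enteroendocrine genes 8, led by Chgb (1.01), Cpe (1.14), Reg4 (1.03), Chga (0.93) and Tph1 (0.95). Of 11 enterocyte genes 4 rose, Fabp1 (0.87), Anpep (1.497), Apoa1 (1.29) and Slc5a1 (0.59), 11 of 11 were positive and the median was 0.84. Of 15 absorptive lineage factors 5 fell, Klf5 (−0.42), Cdx1 (−0.42), Vdr (−0.80), Hnf4g (−0.51) and Ppara (−1.32), and 1 rose, Creb3l3 (1.19), named beyond the 5 genes per list once its value had been seen. In VIP-treated cells the counts were 12 of 12 Paneth, 4 of 14 goblet (with 1 lower, Galnt12, −0.35) and 11 of 12 enteroendocrine genes. The smallest p there were those of Defa30 (1.28), Ang4 (1.18), Itln1 (0.82), Defa17 (1.06) and Defa24 (0.63), of Tff3 (0.60), Guca2a (0.60), Spink4 (0.54) and Muc2 (0.80), and of Chgb (1.11), Cpe (1.32), Pyy (2.01), Cck (1.34) and Gcg (1.61). Of 11 enterocyte genes 0 passed in VIP-treated cells, though 11 of 11 were positive there too (3 at an unadjusted p under 0.05 in edgeR, median 0.57). The interaction of VIP and irradiation called 0 of these 11, so a difference between the states was not shown. In VIP-treated cells 3 absorptive factors fell, Cdx1 (−0.34), Klf5 (−0.29) and Hnf4g (−0.41), and the tuft cell gene Sh2d6 rose (1.15). The summed enteroendocrine genes were at 2744 to 5805 CPM in the non-irradiated and 6924 to 12210 CPM in the irradiated cells, with or without VIP. The summed tuft cell genes were at 45.5 to 133.4 CPM and 67.3 to 156.2 CPM. Of 12 genes of non-epithelial cells only Vim had enough counts, and it rose as well (1.31 without and 1.004 with VIP), with the summed 12 genes at 15.02 to 37.1 CPM in non-irradiated and 31.8 to 80.9 CPM in irradiated cells. The defensin genes belong to a family of near-identical copies, so single counts among them are uncertain. The part of these products' cells in the Foxq1 result was not tested.

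Of the 11 other secretory regulators tested in VIP-treated cells, irradiation raised 3, Neurod1 (1.32), Nkx2-2 (1.24) and Insm1 (1.15), all factors of enteroendocrine differentiation, and lowered Elf3 (−0.31). In untreated cells 0 of the 11 passed, with 7 positive and a median of 0.0595. At an unadjusted p under 0.05 in edgeR there were 5 of them, where 16.7% of all genes had such a p. The interaction of VIP and irradiation called 0 of the 11, so a difference between the states was not shown. Of 7 Notch pathway genes 0 passed in either state. Of 9 tested stem cell genes, Olfm4 (log2 fold change −0.64 without and −0.86 with VIP) and Smoc2 (−0.31 in both) fell, and Cdca7 (−0.36) with VIP. The list as a whole had 5 of 9 positive without VIP (median 0.019) and 4 of 9 with VIP (median −0.26). Of 20 p53 targets 15 and 16 rose, with the smallest p for Cdkn1a (1.15 and 1.75), the cell cycle inhibitor induced by DNA damage, Phlda3 (1.34 and 1.83), Bax (0.68 and 0.86) and Ccng1 (1.15 and 1.6025) in both, Gtse1 (1.14) without and Ddit4l (2.33) with VIP. Of 19 immediate early genes 3 rose without VIP, Btg2 (0.45), Junb (0.35) and Fosl1 (1.098), and Jun fell (−0.30), while with VIP 5 rose, Btg2 (0.72), Fosl1 (1.96), Nr4a1 (0.88), Junb (0.36) and Klf6 (0.28).

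Across the 30 cultures of mice with at least 2 cultures, the log2 CPM of the factors, centred on the mouse, was compared pair by pair. The highest Pearson correlations of the 45 pairs were those of Foxa3 with Hes6 (0.64) and with Creb3l1 (0.63), and of Atoh1 with Klf4 (0.62) and with Spdef (0.61). Foxq1 correlated little with Foxa3 (−0.16) and Hes6 (−0.02). Among 6983 other genes with at least 10 counts on average in each experiment, Tfeb (0.78), Atxn7l3 (0.75), Relb (0.75), Kif23 (0.73) and Ehmt1 (0.72) were most like Atoh1. Septin7 (0.84), Ctu2 (0.82), Zfx (0.79), Kif23 (0.72) and Rrp1b (0.72) were most like Spdef. The points share libraries and depth, and Atoh1 and Spdef had as few as 3 UMIs in a culture of the 72 h sort, so these values are descriptions.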

How the data were processed

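RNA was sequenced from 37 libraries of 31 cultures. The authors made cDNA with oligo-dT primers carrying sample barcodes and UMIs, counted UMIs with the Drop-seq pipeline on GRCm38, and deposited raw counts per gene and library, without normalization. The number of columns without a sample was 0.

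Counts of technical replicate libraries were summed per culture. Genes were filtered by group with filterByExpr of edgeR 4.0.16 (R 4.3.3), scaled by TMM and tested by quasi-likelihood, the mouse being a block, with Benjamini-Hochberg adjustment over all genes tested and a threshold of 0.05. The 16 cultures of the irradiation experiment were fitted together, and the interaction with the compartment used the 15 cultures of the first 2 experiments. CPM refer to the counts of the whole library. DESeq2 1.42.0 and further settings were alternatives.

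Cultures were paired by the mouse number in the labels. Deviations from the group mean correlated across genes at 0.29 to 0.66 within a mouse in whole organoids, where those between mice were −0.58 to 0.36. The within-mouse values were 0.03 to 0.21 in the 72 h sort (between mice −0.14 to 0.15) and −0.07 to 0.16 in the irradiation experiment (between mice −0.20 to 0.20), so that in the latter the ranges overlapped fully. The pairing rests on the labels. No mouse gave more than 1 culture to a group, and mouse 4 of the whole organoids gave only a VIP-treated one. With the mouse as a block, p-values rest on the spread of the responses between mice and not on that of the levels. The quasi-likelihood fit of edgeR estimates the spread of a gene partly from the other genes.

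The 10 factors and all gene lists were chosen with earlier results of these data known. All 10 factors are named in every comparison, genes of other lists where they passed (at most 5 per list and comparison, smallest p first), and for Atoh1 and Spdef the 5 genes with the highest correlation. Sequences and positions are from RefSeq (GRCm38.p6) and GENCODE M21. Depth (575242 to 6330404 UMIs per culture) sets the counting error of low genes.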

Additional observations from a re-analysis of the deposited data

Results flagged for a closer look

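In groups of 4 cultures, a factor's CPM was looked at again where 1 culture lay far from the other 3 (Dixon's ratio of the gap to the range, 95% level). This was so in 4 of 70 groups, and chance gives about 1 in 20. In untreated cells of the 72 h sort, Foxq1 was 7.95 CPM in mouse 4, with the others at 14.8 to 16.2 CPM, and Spdef was 6.58 CPM in mouse 3, with the others at 15.2 to 16.2 CPM. Both values rest on 4 or 5 UMIs. Hes6 was 161.2 CPM in untreated, non-irradiated cells of mouse 4, with the others at 196.6 to 202.4 CPM. Spdef was 14.1 CPM in irradiated cells of mouse 1 without VIP, with the others at 3.56 to 4.99 CPM.

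Sox4 was lower with VIP in 3 of 3 mice in whole organoids and higher in 4 of 4 mice in Lgr5-EGFP+ cells of the 72 h sort. The difference in log2 fold change, 0.63, had an adjusted p of 0.244 in edgeR, and mouse line, experiment and depth differed as well.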

How the results depend on the processing

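Of the 129 alternative values of the 11 called effects, 97 stayed past the threshold, 32 did not and 0 changed direction. Of 650 alternative values of the 59 effects that were not called, 36 changed direction, 3 passed the threshold, and 611 did neither. The cause of these changes was not tested.

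Without the mouse as a replicate block, 0 of the 10 factors passed in whole organoids (main 4; 3 at an unadjusted p under 0.05), 1 in non-irradiated cells with VIP (main 3), and all other counts of factors were as with the pairing; Hes6 in whole organoids was 0.019. The number of all genes then fell from 614 to 99 in whole organoids, from 74 to 34 and from 22 to 12 for VIP in non-irradiated and irradiated cells, from 6 to 1 in the 72 h sort and from 15 to 0 in the interaction with the compartment. DESeq2 called 300 genes in whole organoids, 281 and 489 for irradiation without and with VIP (main 445 and 776), 12 for VIP in irradiated cells and 2 in the 72 h sort. With all genes of any count, 1 factor (Klf4) passed in the interaction with the compartment, and 979, 17, 182, 110, 34 and 55 genes passed in whole organoids, the 72 h sort, non-irradiated and irradiated cells with VIP and the interactions with irradiation and the compartment. With at least 10 counts in every sample the interaction with the compartment had 7 genes and the 72 h sort 11, with library size as the only scaling 9 and 14. In the 2 groups compared alone, 184 and 52 genes passed for VIP in non-irradiated and irradiated cells. The second library of VIP-treated mouse 3 left out gave 1261 genes in whole organoids and 27 in the interaction; its first library left out, an alternative added once the data had been seen, gave 0 and 1, with 0 factors in whole organoids.

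The number of factors past the threshold, leaving out each mouse in turn, was 2 to 4 in whole organoids, 0 to 2 for VIP in non-irradiated cells, 1 to 4 for irradiation of VIP-treated cells and 0 to 1 in the interaction with the compartment. Without mouse 3, 1668 genes passed in whole organoids, against 377 and 363 without mouse 1 and mouse 2. For irradiation without VIP, 643, 252, 212 and 176 genes passed without mouse 1, 2, 3 and 4 (main 445), and for irradiation with VIP 426 to 691 (main 776; 474 without mouse 2, 426 without mouse 4). For VIP in non-irradiated cells 32 to 42 genes passed (main 74), in irradiated cells 5 to 35 (main 22; 35 without mouse 2, 5 without mouse 3, 10 without mouse 4), in the 72 h sort 3 to 17 (main 6) and in the interaction with the compartment 4 to 39 (main 15).

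Signs near 0 changed most. Foxa3 in whole organoids was −0.00066 with DESeq2, −0.45 without the first library of VIP-treated mouse 3 and −0.059 to 0.062 leaving out each mouse, and Gfi1 was −0.00078 and −0.055 to 0.39. Hes6 was 0.063 with first libraries only, 0.015 without the second library of VIP-treated mouse 3 and −0.051 to 0.036 leaving out each mouse. In the 72 h sort, Foxa3 was 0.021 and Hes6 0.0067 with library size as the only scaling, and leaving out each mouse gave −0.084 to 0.031, −0.12 to 0.075, −0.64 to 0.082 for Atoh1 and −0.17 to 0.31 for Creb3l1. In the interaction with the compartment, Foxa3 was 0.0014 and Hes6 0.0057 with library size as the only scaling, 0.43 and 0.015 without the first library, and −0.092 to 0.069 and −0.10 to 0.037 leaving out each mouse. Leaving out each mouse, VIP gave −0.09 to 0.18 for Atoh1 and −0.19 to 0.62 for Spdef in non-irradiated cells, and −0.052 to 0.24 for Klf4 and −0.11 to 0.093 for Hes6 in irradiated cells. Irradiation gave −0.0028 to 0.25 for Foxa2, −0.57 to 0.12 for Klf4 and −0.019 to 0.10 for Hes6 without VIP, and −0.11 to 0.053 for Atoh1 and −0.10 to 0.24 for Spdef with VIP, and the interaction with irradiation −0.46 to 0.24 for Klf4.

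Depth limits the values of Gfi1 and Spdef and, in the 72 h sort, of Foxa2 and Foxq1, and whole organoids had 3 untreated cultures.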
